A study of Mus musculus with 12 samples.

Results

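The control transcriptome of the mouse 2-cell embryo was described from the 4 RNA-seq libraries labelled as DMSO, of 8 RNA-seq libraries and 12 samples in the series. The mothers were superovulated NSA(CF-1) mice and the fathers were B6SJLF1/J. The embryos were recovered at the pronuclear stage, 16 to 20 hours after human chorionic gonadotropin (hCG), and cultured in KSOM medium under 5% oxygen with the DMSO vehicle until 46 hours after hCG. The other RNA-seq group received 50 µM IWR1-endo, an inhibitor of the poly-ADP-ribosylating tankyrases, in the same vehicle, and the remaining samples were ATAC-seq, which maps open chromatin; none of these enters the values below. Each library was made with the SMART-Seq v4 low-input kit from a pool of 10 embryos, and the pools were 4 independent collections. All embryos had therefore been cultured, had been exposed to DMSO, and carried NSA(CF-1) maternal RNA, and values of single embryos cannot be read from the pools.

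The mouse 2-cell embryo stands at the hand-over from egg to embryo. The oocyte loads it with messenger RNA, much of which is destroyed after fertilization, while transcription from the embryo's own genome starts in a minor wave and then a major one. Genes of the DUX and MERVL network, such as the Zscan4 cluster, are transcribed in a burst at this stage, alongside genes for ribosomes and other growth machinery.

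The libraries held 16606155, 18987970, 49448988 and 49672143 counts over genes in collections 1 to 4, so that 1 and 2 were shallow and 3 and 4 deep. The read duplication level was 58.7%, 56.7%, 64.6% and 64.8% in that order. Library 4 stood apart: the leading axis of log2 levels, which held 55.4% of the variance over 5635 genes, placed the libraries at -0.47, -0.40, 0.08 and 0.78. Because depth and duplication change with the same libraries, their part in any difference between libraries was not tested, and values without library 4 are given beside the results that rest on it. No library was dropped. The label was checked against markers: 29 of 33 measured genes of the early 2-cell list and 49 of 55 of the maternal and oocyte list reached 1 FPKM (counts per kilobase of gene model, scaled to the library's total) in all 4 libraries. Of 20 markers of later stages, 6 did so as well, and of all 24918 gene entries 9129 (36.6%) did.

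Counts were detected for most annotated genes, but a far smaller set carried the transcriptome. Of 24918 gene entries, 13684 had a count in every library and 6505 (26.1%) had none in any. A gene with 0 of 134715256 counts could still hold up to 0.0223 CPM, a level scaled to the library's total. At the level used here for expression, at least 1 FPKM in all 4 libraries, 9129 entries (36.6%) were present, 4168 reached 10 FPKM, 922 reached 100 FPKM and 56 reached 1000 FPKM. The share of 36.6% is the background for the numbers of expressed members given for lists and families below. A further 6347 entries were counted but stayed under 1 FPKM everywhere, and 2937 crossed 1 FPKM in some libraries only.

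The number of genes with a count was 15915, 16263, 16160 and 15542 in the 4 libraries (15970 ± 320, SD, n = 4). Thinned to the depth of library 1, the numbers were 15915, 16190, 15770 and 15195. Library 4 had the fewest genes although it was the deepest. Entries counted in a single library numbered 1845, with a median of 4 to 9 counts each, and 5 of them had 100 or more counts there. Fxyd6, an ion-transport regulator, had 198 counts and Gm14446 had 146, both in library 3 alone. Nova1, an RNA-binding splicing factor, had 137 counts, the protocadherin Pcdhga1 had 127 and the potassium-channel subunit Kcne2 had 100, in library 4 alone. The Gm14446 and Pcdhga1 models overlap other counted models, so their reads may belong to neighbours.

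The genes that held 50% of the counts numbered 604, 646, 529 and 563 in libraries 1 to 4 (585.5 ± 50.7), and 90% of the counts lay in 3986, 4136, 3695 and 3711 genes. The 10 genes with most counts held 6.84%, 5.95%, 6.82% and 6.10%, and the 1000 with most counts held 61.4% ± 1.79 (SD, n = 4). The curves of the 4 libraries lay close together over the whole range. Counts give long genes more weight than FPKM does, and on summed FPKM 306 genes held 50%.

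**Figure D1:**
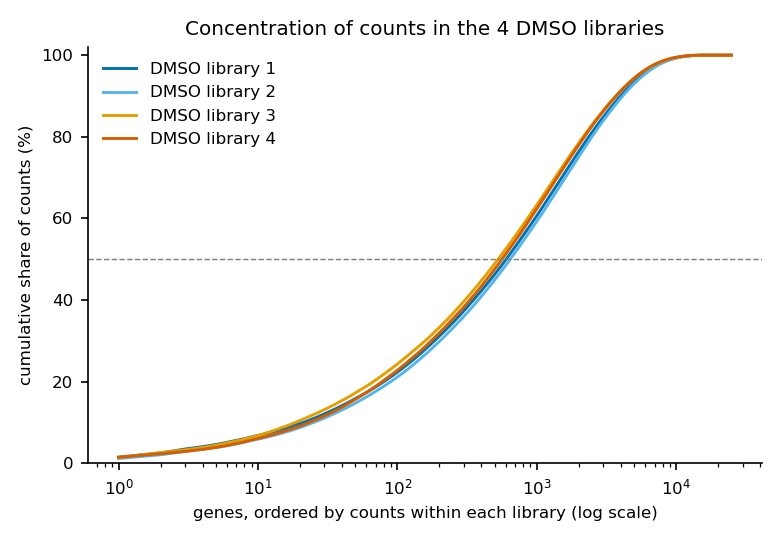
Cumulative share of counts in percent (vertical axis) against the number of genes, ordered by counts within each library (horizontal axis, log scale), with 1 line per DMSO library. The dashed line marks 50%, which the libraries crossed between 529 and 646 genes.

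Genes of the maternal and oocyte list headed the ranking by median FPKM, which was made among gene models of at least 200 bases. Dppa3, a maternal factor that protects the methylation of the maternal genome (chromosome 6, 122626424 to 122630271, GRCm38.p6), was first in every library, at 18714, 14753, 17434 and 18345 FPKM (17312 ± 1789, SD, n = 4). It alone held 1.42% ± 0.146 of all counts (SD, n = 4). Omt2b, an oocyte maturation gene on chromosome 9 (78328030 to 78329620), followed at 13133, 11151, 16529.9 and 11804 FPKM. Its neighbour and relative Omt2a, on the same chromosome (78311972 to 78314797), stood at 3928, 3183, 4182 and 3175 FPKM. Library 3 was highest for both; reads shared between the 2 copies may have been split or dropped in counting. Rpl41, a ribosomal protein with a very short coding sequence, came next at 11731, 9717, 10619.7 and 12405 FPKM. These 3 genes were the leading 3 in every library, with Rpl41 ahead of Omt2b in library 4.

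Behind them lay a mixture of housekeeping and oocyte genes. The metallothionein Mt1, which binds zinc, was at 3548, 3073, 5279 and 5307 FPKM, with both deep libraries above both shallow ones. Oog3, an oogenesin of the PRAME-like family, was at 5501, 4874, 3642 and 2768 FPKM and went the other way. Tcl1, a co-activator of the kinase AKT, was at 2906, 2818, 3477 and 1326 FPKM: libraries 1 to 3 lay close together and library 4 was far below, at rank 54 against ranks 10 and 11. Dppa5a, an RNA-binding protein of pluripotent cells, was at 1714, 2192, 2424 and 3253 FPKM, lowest in library 1 and highest in library 4. Calm2, which encodes calmodulin, was at 2658, 2524, 2884 and 2629 FPKM and B020004C17Rik, a gene of the early 2-cell list whose role is not annotated in the files, at 1836, 1879.7, 2048 and 2015 FPKM. Those last 2 had the smallest spread of the 20 most abundant genes, with CVs of 5.67% and 5.29%.

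Other genes of the 20 had the following ranges over the 4 libraries. Tceb1, the elongin C subunit, lay between 3465 and 4608 FPKM, Znhit3, a zinc-finger HIT protein, between 2690.1 and 4647, and Cks2, a subunit of cyclin-dependent kinases, between 3044 and 3959.5. Hprt of purine salvage, the TFIID subunit Taf9, the histone variant gene H2afz, the autophagy gene Map1lc3b and the ribosomal gene Rps27l lay between 1482 and 2926 FPKM. Gm11517, between 2989.7 and 3759 FPKM, overlaps the model of Cbx1, and Znhit3, Taf9 and Map1lc3b also overlap other counted models, so that their levels are uncertain. Of the 20 genes, 19 stayed within 2-fold between the lowest and the highest library; of all 9129 expressed genes, 29.7% did not. In library 2, 15 of the 20 were lowest, beside 16.8% of all expressed genes; scaled by TMM, the trimmed mean of M-values, 17 were, beside 25.8%.

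**Figure D2:**
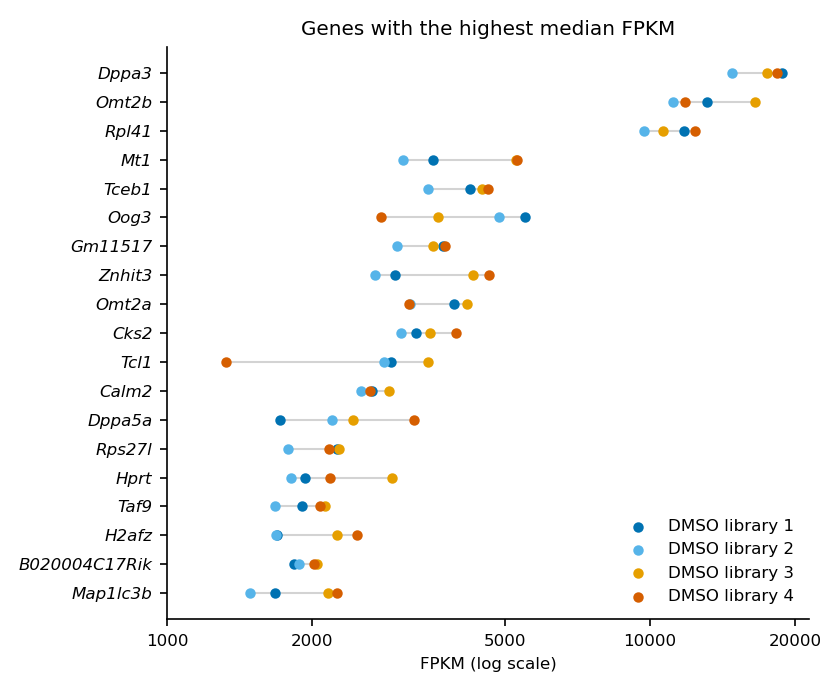
FPKM (horizontal axis, log scale) of 19 of the 20 genes with the highest median, 1 point per DMSO library and a grey line from the lowest to the highest. Dppa3, Omt2b and Rpl41 stand between 9717 and 18714 FPKM, apart from the others, and Tcl1 shows the widest range, with library 4 at 1326.

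The membership of the top of the ranking was largely shared. Of the 10 leading genes of each library 8 were common to all 4, of the 100 leading genes 78, and of the 1000 leading genes 837. The 100 most abundant genes included 12 cytosolic ribosomal protein genes, 9 of the maternal and oocyte list and 4 of the G2 and mitosis list. Their median model length was 993.5 bases, against 2108 bases over all entries. By share of counts, which favours long models, Spin1 entered the 5 leading genes; it encodes spindlin, a histone reader abundant in oocytes, and stood at 1249, 1057, 1209 and 432 FPKM, with library 4 well below the other libraries; its model overlaps another counted one.

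The start-site windows of the leading genes were of 2 kinds, and the 4 most abundant genes that have a window in the RefSeq table show both. Each window runs from 250 bases before to 50 bases after the annotated start, 5′ to 3′ on the gene's strand, on GRCm38.p6, and CG dinucleotides are in capitals. Omt2b (chr9:78327780-78328079, plus strand) and Oog3 (chr4:144162602-144162901, minus strand) hold a single CG each. Rpl41 (chr10:128549119-128549418, minus strand) holds 16 and Mt1 (chr8:94178839-94179138, plus strand) holds 24.
Omt2b: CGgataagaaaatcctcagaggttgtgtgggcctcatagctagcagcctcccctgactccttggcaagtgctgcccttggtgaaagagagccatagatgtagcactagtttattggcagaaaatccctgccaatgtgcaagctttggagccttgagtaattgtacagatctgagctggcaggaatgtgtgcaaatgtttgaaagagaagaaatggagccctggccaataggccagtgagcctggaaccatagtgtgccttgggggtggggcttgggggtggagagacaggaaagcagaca
Oog3: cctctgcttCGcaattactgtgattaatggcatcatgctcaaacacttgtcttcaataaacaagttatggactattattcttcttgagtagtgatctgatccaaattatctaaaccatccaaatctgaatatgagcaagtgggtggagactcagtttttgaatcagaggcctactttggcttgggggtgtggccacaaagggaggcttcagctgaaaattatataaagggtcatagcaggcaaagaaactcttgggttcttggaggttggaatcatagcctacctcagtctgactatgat
Rpl41: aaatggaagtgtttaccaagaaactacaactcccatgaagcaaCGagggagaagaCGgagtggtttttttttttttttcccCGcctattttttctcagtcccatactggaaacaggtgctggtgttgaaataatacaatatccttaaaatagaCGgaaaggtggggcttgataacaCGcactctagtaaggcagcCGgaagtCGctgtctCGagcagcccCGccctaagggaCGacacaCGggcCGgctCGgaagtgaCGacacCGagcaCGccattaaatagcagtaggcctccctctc
Mt1: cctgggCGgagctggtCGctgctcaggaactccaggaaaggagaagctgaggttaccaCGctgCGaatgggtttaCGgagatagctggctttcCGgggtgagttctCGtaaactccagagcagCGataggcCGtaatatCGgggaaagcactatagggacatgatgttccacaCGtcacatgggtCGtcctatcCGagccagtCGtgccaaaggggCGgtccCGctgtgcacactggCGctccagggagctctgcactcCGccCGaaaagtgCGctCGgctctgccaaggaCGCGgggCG

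In the sequences above, Oog3 has TATAAA between 40 and 15 bases before the start, Omt2b has CCAAT, and Rpl41 and Mt1 have GGGCGG, on either strand of the window. A window was found for 16440 of 20525 protein-coding genes (80.1%), each gene's first listed start being used. The median number of CG dinucleotides was 2 in the 3136 windows of genes with no count, 19 in the 4277 of genes with a median between 1 and 10 FPKM, 22 in the 2921 between 10 and 100 FPKM, and 22 in the 894 at 100 FPKM and above. GGGCGG, which itself contains a CG, occurred in 15.1%, 60.2%, 65.4% and 62.5% of these classes and in 48.4% of all windows. TATAAA anywhere in the window, on either strand, occurred in 27.6%, 8.32%, 6.47% and 7.83% of them and in 13.1% of all windows. The check is void for counted genes under 1 FPKM, of which 77.7% had a window.

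Genes with 5 or fewer CG dinucleotides were the exception among abundant genes, 75 of 894 (8.39%) against 75.1% of genes with no count. The most abundant of them were Omt2b, Oog3, Omt2a, B020004C17Rik, Spic, Btg4 and Oosp1. Of expressed maternal and oocyte genes with a window, 21 of 41 (51.2%) were in this CG-poor class, as were all 5 of the Obox homeobox genes and all 9 of the Nlrp genes with a window, beside 4974 (30.3%) of all 16440 windows. That background includes genes with no count. The CG-poor share was 14.5% for genes with a median between 1 and 10 FPKM and 8.56% between 10 and 100 FPKM. Expressed Fbxw genes had 10 of 14 (71.4%) in this class. Olfactory receptor genes, expressed or not, had 917 of 935 (98.1%). Some Nlrp and Fbxw genes are also members of the maternal and oocyte list. For the early 2-cell, ribosomal and pluripotency lists fewer than 80% of members had a window, and no share is given.

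**Figure D3:**
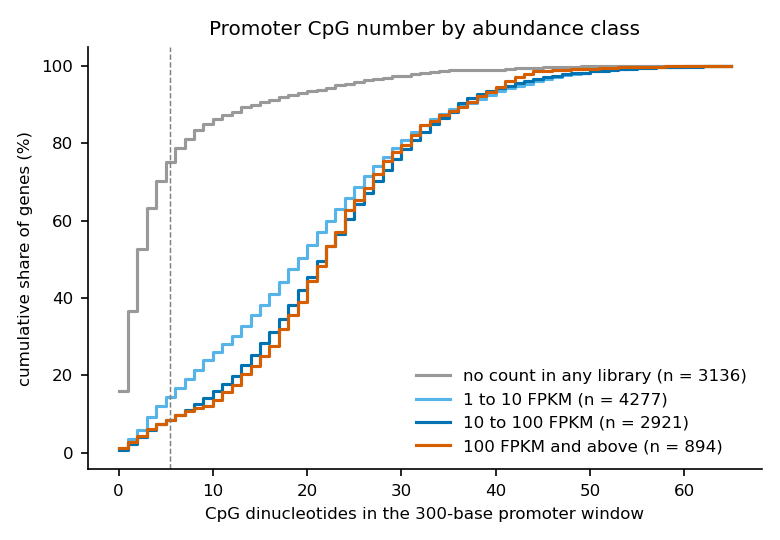
Cumulative share of protein-coding genes in percent (vertical axis) against the number of CG dinucleotides in the promoter window (horizontal axis), 1 line per abundance class. The dashed line separates windows with 5 or fewer, which were 75.1% of genes with no count and 8.39% of genes at 100 FPKM and above.

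Nearly all counts, 98.2% to 98.3% in every library, fell on protein-coding genes by the RefSeq gene types, and 8676 of 21205 such entries reached 1 FPKM in all 4 libraries. Long non-coding RNA genes took 0.942% to 1.12% of the counts, with 303 of 1829 entries at 1 FPKM. Of 1198 microRNA genes, 1014 had no count, and the levels of others can come from reads of a host: the Mir1956 model overlaps Eif4e, the translation initiation factor that binds the cap. Genes encoded by mitochondrial DNA have no entry under the names searched.

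The maternal and oocyte list was abundant, and its single members differed more between collections than its sum did. The median member CV was 32.3%, beside 21.7% for all expressed genes and 15.3% for cytosolic ribosomal protein genes. The CV of the summed FPKM, to which Dppa3 and Omt2b gave the largest parts, was 11.5%, beside 11.3% for cytosolic ribosomal protein genes. RNA left by the oocyte and RNA made by the embryo were not separated. Summed over the 55 measured members, the maternal and oocyte list reached 53509, 45742, 53068 and 42113 FPKM in libraries 1 to 4 (48608 ± 5607, SD, n = 4), or 8.23% ± 0.982 of all FPKM. Without Dppa3 and Omt2b, the sums of the expressed members were 21655, 19828, 19099 and 11963, with libraries 1 to 3 close and library 4 far lower. Of the 49 expressed members, 27 had their lowest level in library 4, beside 30.5% of all 9129 expressed genes, and 30 had their highest in library 1, beside 26.3%. The median member deviated from its own mean by 0.36, 0.22, -0.10 and -0.53 on the log2 scale. In both deep libraries 31 of the 49 lay below both shallow ones, beside 29.8% of all expressed genes. Less RNA per embryo from these genes and fewer embryos carrying it cannot be told apart in a pool.

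Single oocyte genes show how far the libraries diverged. Btg4, an adaptor that brings the deadenylase to maternal messages, was at 1747, 2007, 1449.7 and 618 FPKM. The zona pellucida gene Zp2 was at 26.8, 26.9, 29.3 and 11.5 FPKM. For both genes library 4 was far below libraries 1 to 3. Ooep, of the subcortical maternal complex, was at 149, 90.3, 39.02 and 44.9 FPKM, with both shallow libraries above both deep ones. Cyclin B1 (Ccnb1), which drives entry into mitosis and is also made by the embryo, was at 1029, 1171, 1143 and 1114 FPKM and showed no such pattern.

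The Nlrp and Fbxw families were taken by symbol and share members with the list, such as Nlrp4f, Nlrp14 and Fbxw28. Their values are therefore not independent of those of the list. The Nlrp genes are relatives of innate immune sensors, and several serve in oocytes. Of the 11 expressed ones, 10 were lowest in library 4, beside 30.5% of all expressed genes. In both deep libraries 10 lay lower than in both shallow ones, beside 29.8%. The leading Nlrp gene, Nlrp9c, was at 297, 299, 228 and 89.2 FPKM, Nlrp4f at 97.1, 162, 70.2 and 30.5 and Nlrp14 at 73.98, 62.6, 54.04 and 33.3. Of the 17 expressed Fbxw genes, F-box proteins of ubiquitin ligases, 12 were lowest in library 4, beside 30.5%, and 13 highest in library 1, beside 26.3%. Fbxw24 was at 675, 549, 508 and 389 FPKM, Fbxw14 at 304, 203, 177 and 115 and Fbxw28 at 271, 176, 159 and 111. The median member CV was 32.3% for the maternal list, 43.1% for Nlrp genes and 32% for Fbxw genes, beside 21.7% for all expressed genes. Without library 4 the values were 22.8%, 27.04%, 22.9% and 18.5%.

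**Figure D4:**
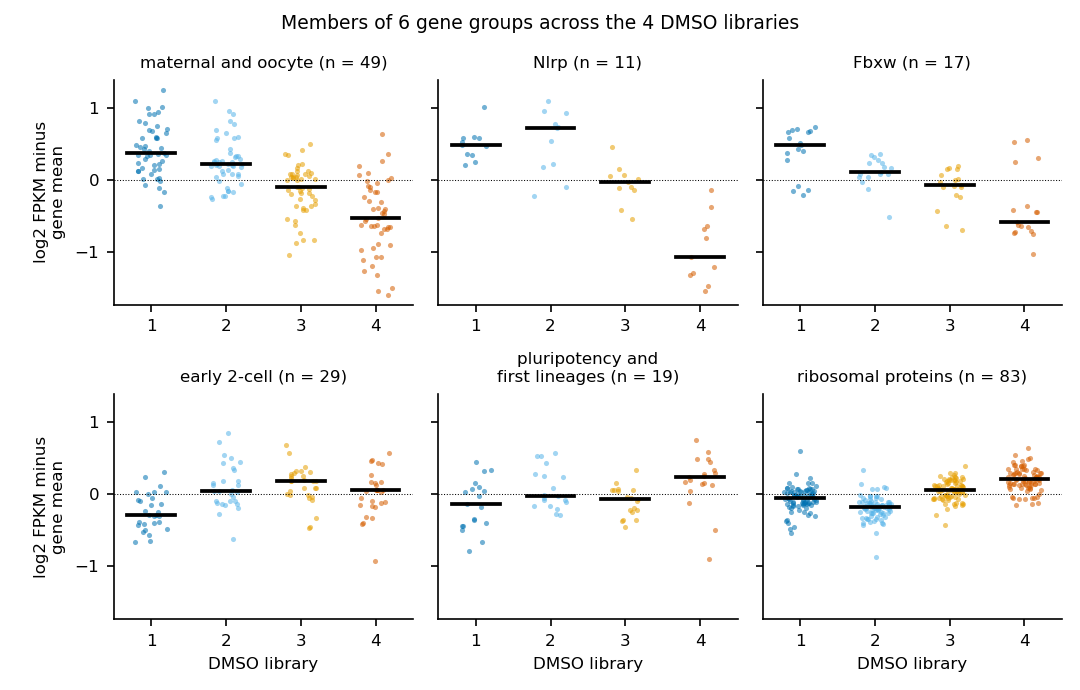
Deviation of each expressed member from its own mean over the 4 DMSO libraries, in log2 FPKM (vertical axis), by library (horizontal axis), for 6 gene groups. Each point is a gene and the black bars are medians, which for the maternal and oocyte list stand at 0.36, 0.22, -0.10 and -0.53.

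Of the 6 expressed Obox homeobox genes, transcription factors of the egg and early embryo, 5 were highest in library 1, beside 26.3% of all expressed genes, and 4 were lowest in library 4, beside 30.5%. The leading member was the exception. Obox6 was at 1209, 1348, 1550.2 and 1614 FPKM, lowest in library 1 and highest in library 4. Obox5 was at 957, 725, 542 and 238 FPKM, highest in library 1 and lowest in library 4. Obox3 lay at 537, 505, 397 and 466 FPKM, with both shallow libraries above both deep ones. Near-identical members of the cluster share reads, so single values are uncertain.

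Genes transcribed at the 2-cell stage were present in every library, with a median member CV of 20.6% beside 21.7% for all expressed genes, and 22.6% beside 18.5% without library 4. The 33 measured members of the early 2-cell list summed to 3792, 4388, 4572 and 4559 FPKM (4328 ± 367, SD, n = 4), and B020004C17Rik gave the largest part in every library. Pramel7, a PRAME-like factor, was at 205, 269, 351 and 395 FPKM and Sp110, a nuclear body protein, at 233, 285, 264 and 245 FPKM. Of the 29 expressed members, 17 were lowest in library 1, beside 21.5% of all expressed genes. The Zscan4 cluster, which acts on telomeres in mouse embryonic stem cells, was led by Zscan4d at 52.2, 64.9, 112 and 62.2 FPKM, highest in library 3. Copies of Zscan4, Tcstv and Usp17l are nearly identical, and multi-mapping reads may be missing from all of them. Duxf3 was not measured under that name.

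Pluripotency genes showed a leading trio and a long low tail. Dppa5a led, then Dppa4 at 552, 539.8, 675 and 678 FPKM and its partner Dppa2 at 295, 359, 488 and 445 FPKM, both chromatin proteins, with both deep libraries above both shallow ones for each. Pou5f1, the central pluripotency factor, was at 3.26, 8.36, 4.81 and 7.62 FPKM. Of 32 members, 19 were expressed, and 10 of these were highest in library 4, beside 28.4% of all expressed genes. Among 20 markers of later stages, 6 reached 1 FPKM everywhere: Dppa5a, Gata4 at 17.04, 14.8, 14.5 and 21.03 FPKM, Fgf4 at 11.3, 9.52, 11.95 and 13.7, Krt18 at 7.40, 8.46, 6.07 and 3.13, Dab2 at 6.81, 9.01, 4.10 and 2.40 and Tdgf1 at 1.16, 1.804, 1.79 and 3.08. The trophectoderm genes Cdx2 and Elf5, from the lists of markers and of first lineages, had no count, whereas Krt18, a keratin of the same tissue, was counted in every library. Of these 6 markers, 4 were highest in library 4, beside 28.4% of all expressed genes. They were Dppa5a, Gata4, Fgf4 and Tdgf1, whereas Dab2 and Krt18 were lowest there.

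Growth machinery was present in almost complete sets. Of 84 cytosolic ribosomal protein genes 83 were expressed and 64 reached 100 FPKM in all libraries, summing to 44707, 39056, 46095 and 51495 FPKM. In library 4 56 of the 83 had their highest level, beside 28.4% of all expressed genes, and 50 were higher in both deep libraries than in both shallow ones, beside 15.7%. Library 2 was the lowest for 54 of the 83, beside 16.8% of all expressed genes, and with TMM for 65, beside 25.8%. Rps26, Rplp0 and Rps14, chosen after their values were seen, are examples of other members, at 1370.4, 1274, 1587 and 1648, 1474, 1536, 1437 and 1398 and 1211, 1035, 1119 and 1271 FPKM; Rplp0 was not highest in library 4. Ribosomal protein genes have many processed pseudogenes, and reads that map to several places may be missing.

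Of 93 nuclear genes for oxidative phosphorylation 90 were expressed, led by Cox8a, a subunit of cytochrome oxidase, at 1086, 951, 1073 and 1116 FPKM, by Atp5g1, a subunit of the ATP synthase, at 1056, 999.6, 998 and 1362 FPKM, and by Cox5a at 849.5, 639.97, 734 and 816 FPKM. All 3 had library 2 or 3 as their lowest. Of 39 proteasome genes 35 were expressed, and Psmb1, a core subunit, was at 854, 776, 728 and 852 FPKM. In the G2 and mitosis list 29 of 32 genes were expressed. Pttg1, the securin that holds back chromosome separation, was at 1545, 1549, 869 and 1325 FPKM, and Ube2c, the ubiquitin-conjugating enzyme of the anaphase-promoting complex, at 1182, 1216, 1651 and 1801 FPKM. Library 3 was lowest for Pttg1, and both deep libraries were above both shallow ones for Ube2c.

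Carbohydrate metabolism was represented unevenly. Ldhb, the lactate dehydrogenase subunit of the oocyte, was at 699, 582, 329 and 309 FPKM, with both shallow libraries above both deep ones. Mdh2, the mitochondrial malate dehydrogenase, was at 298, 274, 176 and 230.4 FPKM, and Pdhb, of pyruvate dehydrogenase, at 189, 237, 159.6 and 204 FPKM. The glycolytic enzyme Gapdh stayed at 27.8, 33.97, 16.3 and 16.4 FPKM. Of 29 expressed members of the glycolysis and citrate cycle list, 18 lay lower in both deep libraries than in both shallow ones, beside 29.8% of all expressed genes.

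Replication-independent histone genes were far above the clustered ones. H2afz was at 1689, 1684, 2249.9 and 2477 FPKM, H3f3b at 1695, 1526, 1734 and 1505 and H3f3a at 639, 619.6, 813 and 786, whereas 15 of 32 histone genes in all were expressed. The kit primes on poly(A) tails, which most clustered histone messages lack, so that their low counts are no measure of their level. In the DNA methylation list Dppa3 was followed by the imprint protector Zfp57 at 42.6, 45.3, 21.5 and 26.5 FPKM and by Gadd45a at 27.3, 34.7, 34.1 and 59.1 FPKM. Among 30 imprinted genes 12 (40%) were expressed, near the 36.6% of all gene entries. Mcts2 was at 115, 103, 105 and 141 FPKM, Phlda2 at 73.05, 41.8, 36.2 and 59.1 FPKM and Mest at 33.7, 37.7, 30.7 and 20.9 FPKM.

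The median member of the adhesion list was at 1.54 FPKM, beside 0.412 FPKM over all gene entries. Epcam, an epithelial adhesion molecule, was at 186, 194, 160.3 and 193 FPKM, F11r, a junctional adhesion molecule, at 26.03, 32.9, 28.4 and 33.5 FPKM, and Ctnnb1, which encodes β-catenin, at 34.01, 19.9, 36.1 and 26 FPKM. A different library was lowest for each of these 3 genes. In all, 12 of the 23 members of the list (52.2%) were expressed, beside 36.6% of all gene entries. Of these 12, 7 were lowest in library 3, beside 31.2% of all expressed genes.

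Genes of the X and Y chromosomes differed between pools. Xist, the RNA that coats the inactive X chromosome, was at 0.0101, 0.0911, 0.0169 and 0.00899 FPKM and its antisense partner Tsix at 0.0839, 0.122, 0.0376 and 0.103 FPKM; the counting is not stated to use strand, so the 2 cannot be told apart. Y-linked Eif2s3y was at 28.2, 22.01, 9.72 and 22.3 FPKM and Uty at 8.74, 7.85, 3.95 and 10.8 FPKM, so each pool held Y-linked RNA. Ddx3y, also Y-linked, was at 0.0130, 0.295, 0.0436 and 3.22 FPKM, near 0 in 3 libraries. Of 116 protein-coding entries on the Y chromosome, 4 reached 1 FPKM in all libraries and 105 had no count. The ratio of the median FPKM of 303 expressed X-linked genes to that of 8369 autosomal genes was 0.793, 0.935, 1.106 and 0.869. The labels used here do not give the sex of the embryos.

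Families of specialised cells were largely silent. Of 1125 olfactory receptor entries, 956 had no count and 11 reached 1 FPKM, led by Olfr376 at 21.7, 36.6, 30.7 and 26.01 FPKM. Of 387 vomeronasal receptor entries 5 did, of 63 defensins 7 and of 39 Hox genes 1, Hoxa7, at 18.9, 24, 15.2 and 12.4 FPKM. No gene among 44 collagens, 19 Wnt ligands, 38 taste receptors and 52 keratin-associated proteins reached 1 FPKM in all 4 libraries. The Olfr376 model overlaps no other counted model by the RefSeq positions, and its level was above the median expressed autosomal gene, at 10.7 to 12.7 FPKM, in every library.

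Most markers of cells that could accompany the embryos did not reach 1 FPKM in all libraries, but some were well counted. In the cumulus and granulosa list 1 of 18 genes reached 1 FPKM in all libraries, Tnfaip6 at 1.96, 1.71, 1.73 and 3.91 FPKM. The summed level was 4.36, 3.99, 3.32 and 5.11 FPKM. Cyp19a1 had 64, 23, 45 and 0 counts and Star had 22, 40, 42 and 33 counts. No count was found for 7 of the 18, Ptx3, Fshr and Amh among them, beside 26.1% of all gene entries. In the oviduct list 2 of 11 reached 1 FPKM in all libraries. These were 1700009P17Rik at 32.03, 24.2, 25.9 and 35.3 FPKM and Ovgp1 at 3.55, 2.42, 1.26 and 4.11 FPKM. The list summed to 38.8, 30.8, 29.1 and 39.4 FPKM. In the sperm list Ldhc was at 51.7, 37.7, 42.7 and 53.9 FPKM and Odf2 at 23.2, 17.6, 16.1 and 13.2 FPKM, and the 15 genes summed to 78.2, 59.6, 64.4 and 71.6 FPKM; of the protamines Prm3 had no count, Prm1 had 8 counts in library 4 alone and Prm2 had 3, 21, 36 and 43 counts, or 0.295, 1.81, 1.19 and 1.41 FPKM. Ldhc, Odf2 and 1700009P17Rik were above the median expressed autosomal gene of each library, which was at 12.1, 12.7, 10.7 and 11.1 FPKM. In the blood list Cd68 was at 3.12, 2.60, 3.73 and 3.73 FPKM. Lyz2 was at 1.25, 0.747, 1.19 and 2.13 FPKM and Cd74 at 0.468, 3.68, 0.986 and 1.20 FPKM. No count was found for 10 of the 18 entries, the globin genes and Ptprc among them, beside 26.1% of all gene entries. The 18 entries summed to 5.38, 7.66, 7.11 and 7.73 FPKM. Library 4 had the highest sum for cumulus, oviduct and blood, and library 1 for sperm. Their part in the results was not tested.

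The spread between collections was wider for rare than for abundant genes. Over genes at or above 1 FPKM in all libraries, the median CV was 27.7% for mean levels of 1 to 10 FPKM, 18.98% for 10 to 100, 13.9% for 100 to 1000 and 14.0% at 1000 and above. Poisson counting alone, which covers neither PCR duplication nor differences between pools, would give 5.65%, 2.48%, 1.10% and 0.472%. For the 4168 genes at 10 FPKM or more in all libraries the median CV was 16.2%, 876 (21.0%) had a CV under 10%, and 515 (12.4%) differed by over 2-fold between the lowest and the highest library. Of those 4168 genes, 10 had a CV at or under their Poisson value. Without library 4, the median CV of genes at 10 FPKM or more in every remaining library was 13.7%. A difference of over 2-fold between the lowest and the highest library was seen for 2710 (29.7%) of all 9129 expressed genes. The same held for 27 of the 49 expressed maternal and oocyte genes. Without library 4 these numbers were 1480 and 11. Such numbers cannot rise when a library is left out. They were 2002 and 19 without library 1, 2038 and 27 without library 2, and 2042 and 26 without library 3. The common biological coefficient of variation from edgeR, over 12360 genes, was 35.6%, and without library 4 it was 30.4%.

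**Figure D5:**
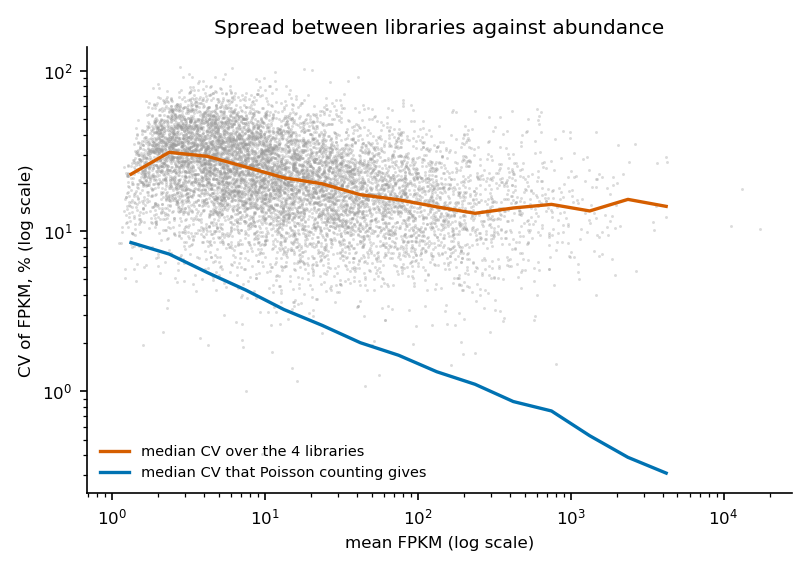
Coefficient of variation of FPKM over the 4 DMSO libraries in percent (vertical axis, log scale) against mean FPKM (horizontal axis, log scale) for the 9129 genes at or above 1 FPKM in all libraries, 1 grey point per gene. The orange line is the median CV in bins of mean FPKM and the blue line the median CV expected from Poisson counting, which falls with abundance while the measured spread levels off near 14.0%.

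Between pairs of libraries, Pearson's r across genes on log2(FPKM + 1) lay between 0.976 and 0.986, a description over genes that are not independent replicates. Libraries 1 and 2 were the closest pair, with 501 of 9129 expressed genes (5.49%) over 2-fold apart. Libraries 1 and 4 were the farthest, with 1322 (14.5%), and libraries 3 and 4, of nearly equal depth, had 917 (10.0%).

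The steadiest genes were not the usual reference genes. Among 3938 genes with a full symbol at 10 FPKM or more in all libraries, the lowest CVs belonged to Dctpp1, a pyrophosphatase of the nucleotide pool, at 44.7, 45.02, 44.98 and 45.9 FPKM (CV 1.08%), to Pdcd7 at 16.4, 15.96, 16.3 and 16.2 FPKM (CV 1.16%) and to Cab39l at 55.3, 55.8, 56.8 and 56.7 FPKM (CV 1.27%). Fnip1, Brk1, Rsl1d1, Swi5, Dnajc21, Mcph1 and Seh1l followed, up to 1.95%. Such values lie at the end of a ranking of 3938 genes over 4 libraries, and some are below the Poisson value, which was 3.65% for Dctpp1. Of the common reference genes, Tbp, the TATA-binding protein, was steadiest at 275, 272, 282 and 261 FPKM, with a CV of 3.30%. Eef1a1 had a CV of 6.43%, Ppia of 6.92%, Hprt of 22.8%, H2afz of 19.8%, Actb of 12.05%, Gapdh of 37.2% and Sdha of 42.8%. Hist2h2aa1 had no count.

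Of the 10 most variable genes, 7 lay lower in both deep libraries than in both shallow ones, beside 29.8% of all expressed genes. These 10 were picked for their CV, so the number describes the picked genes only. Snai1, a repressor of epithelial genes, was at 15.3, 18.1, 12.9 and 60.6 FPKM and had the largest CV, 84.8%, with library 4 alone far above the others. Zfp934, a zinc-finger gene, was at 12.7, 13.9, 49.5 and 24.5 FPKM, highest in library 3. Rgs2, a regulator of G-protein signalling, was at 53.9, 34.4, 14.2 and 13.9 FPKM, and Dctn6, a dynactin subunit, at 119.8, 123, 35.5 and 40.4 FPKM, with both shallow libraries above both deep ones for each. Id2, an inhibitor of helix-loop-helix factors, was at 59.3, 72.9, 25.7 and 16.6 FPKM, and the ligand gene Efna1 at 32.6, 59.7, 16.2 and 16 FPKM, both highest in library 2 and lowest in library 4. Obox2, Ooep, Nlrp4f and Ly6g5c completed the 10, with CVs from 60.1% to 65.7%. Of those 4, the first 3 are oocyte genes described above or members of the same families.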

How the data were processed

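The submitters' processing notes name bcl2fastq, cutadapt 1.11, Trim Galore, STAR 2.5.1b, featureCounts 1.5.0-p1, DESeq2 and the mm10 build, with no roles given. Per the file headers, the deposited table holds raw counts, FPKM values and gene model lengths for 24918 entries of 24059 genes; no entry lacks a gene name. The FPKM deposited by the authors were recomputed from the counts, the column totals and the lengths, with a largest difference of 2.58e-10, so they are scaled by total counts without TMM or size factors. The deposited mapping table gives read numbers and fractions such as the duplication level, printed here as percent. Per-library columns not used numbered 16.

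The libraries hold 16606155 to 49672143 counts. PCR reads carry no molecular identifiers, so Poisson values and the limit of 3 counts cover counting error only. With 4 independent collections, SDs measure the spread between pools. No groups were compared and no p-value was computed; Dixon's ratio served only to flag single libraries. The check against markers, the ranking by median FPKM among models of at least 200 bases, and all lists and families (23 and 25) were chosen with earlier results of these data known. Named genes follow a rule: the 20 highest median FPKM, the 5 largest shares of counts, the 3 leading members of each list or family, all reference genes, Xist, Tsix and Y-linked genes, markers at 1 FPKM in all libraries, the 10 lowest and 10 highest CVs among genes at 10 FPKM or more, leaving out Gm and Rik symbols, and genes with 100 or more counts in a single library. Btg4, Pou5f1, Cdx2, Elf5, Zscan4d, Spic, Oosp1, Rps26, Rplp0 and Rps14, and markers named as having no count, lie outside the rule: they were picked with their values known or given as whole lists. One gene that the rule names is not reported here.

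Gene types, positions and start-site windows come from RefSeq tables on GRCm38.p6, matched by gene ID for 24815 entries (99.6%). The positions carry no strand, so overlapping models were reported as uncertain. The CV is the SD over the mean of the FPKM. The common biological coefficient of variation came from edgeR 4.0.16 (R 4.3.3) with TMM, filterByExpr and an intercept-only design; on counts simulated for the spread between the 4 libraries over 12360 genes with a value of 20%, in which 200 genes were made more variable, it returned 22.2%. Other calculations used Python 3.11.15, pandas 2.3.3 and NumPy 2.4.6. Alternatives were other thresholds, TPM, TMM or DESeq2 1.42.0 size factors, other filters, a pseudocount of 0.1 in place of 1, thinning to the shallowest library and leaving out each library.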

Additional observations from a re-analysis of the deposited data

Results flagged for a closer look

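Of 133 per-library values examined, 12 (9.02%) had a single library far from the other 3 by Dixon's ratio for 4 samples. Chance flags about 1 in 20 groups, but 5 of the 12 genes were named for being counted in a single library and Snai1 for its CV, so the share cannot be read against that rate. Library 4 was the distant one for 8 of them, library 3 for 3 and library 2 for 1. In library 4, Atp5g1 was high at 1362 FPKM against 998 to 1056 elsewhere. Snai1 was high there at 60.6 FPKM against 12.9 to 18.1, and the Y-linked Ddx3y at 3.22 FPKM against 0.0130 to 0.295. Tnfaip6, a cumulus marker, stood at 3.91 FPKM there against 1.71 to 1.96. The zona gene Zp2 was low there at 11.5 FPKM against 26.8 to 29.3. Kcne2 at 1.19 FPKM, Pcdhga1 at 0.564 FPKM and Nova1 at 0.394 FPKM were counted in library 4 alone. In library 3, Eef1a1 stood at 209 FPKM against 184 to 185, and Fxyd6 at 2.23 FPKM and Gm14446 at 1.24 FPKM were counted there alone. Xist stood at 0.0911 FPKM in library 2 against 0.00899 to 0.0169.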

How the results depend on the processing

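No paired analysis was possible because the replicate numbers are shared only with libraries that enter no comparison here, and no result comes from a test. The number of genes at 1 FPKM in all 4 libraries, 9129, was 5635 at a floor of 5 FPKM; 0.5 FPKM, 1 TPM, TMM sizes, 10 counts in every library and thinning kept it within 1.5 times, and leaving out 1 library gave 9255 to 9543. Leaving out a library gave 6873 to 7034 genes with no count, 565 to 604 genes for 50% of the counts, 6.29% to 6.59% for the 10 leading genes, 79 to 85 genes shared among the 100 most abundant, a median CV of 13.7% to 15.8%, a common coefficient of variation of 30.4% to 38.5% and a median correlation of 0.976 to 0.983. On summed FPKM, 306 genes held 50% and the 10 leading genes 11.6%. The median CV was 21.7% for genes at 1 FPKM in all libraries and 41.3% with no filter other than a count. The common coefficient of variation was 69.2% with no filter other than 1 count and 29.2% as the median of DESeq2 dispersions. The median correlation was 0.966 with a pseudocount of 0.1, 0.936 by Spearman and 0.971 for genes at 1 FPKM in all libraries. The cause of these shifts was not tested beyond the genes each filter keeps. All 7 list sums given in the text moved by more than their SD on the TPM scale, which has another total, and none did with TMM. Of 115 median levels examined among genes named in the text, that of Fnip1 moved by more than its SD with TMM. Of the counts of members lowest or highest in a library, 7 were checked with TMM and thinning after the data were seen. With TMM 26 maternal members were lowest in library 4, against 27. All 14 such values, those for the 20 most abundant genes included, stayed within 1.5 times.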
